A study of Mus musculus with 5 samples.

Results

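The 9 genes described here encode parts of the interferon signalling chain in the mouse. They are the interferon gamma receptor chains Ifngr1 and Ifngr2, the transcription factors Stat2, Irf1, Irf7, Irf8 and Irf9, and the feedback inhibitors Socs1 and Usp18. The genes were chosen by symbol, with earlier results of these data known. Each had 1 probe among the 22203 probes of the array, of which 19572 stand for 19505 named genes. Tumours were grown under the skin of wild-type C57BL/6 mice aged 10 weeks from B16.F10 cells, a transplantable mouse melanoma line that here also expressed luciferase and green fluorescent protein. Every mouse received intraperitoneal anti-PD-1, an antibody that blocks a brake on T cells, at days 1, 4 and 8 after the melanoma cells. In addition, 3 mice received RG7112, a small molecule that keeps MDM2 from binding p53, and 2 mice received the vehicle alone (corn oil with 5% DMSO). RG7112 and vehicle were given by mouth every second day over 6 days, and the tumours were excised on day 13. No tumour without anti-PD-1 was analysed here, so every comparison is between tumours that had anti-PD-1. The tissue was a mixture of melanoma cells and infiltrating immune cells, and the tumours all came from 1 transplanted line. The tumours carry the numbers of the labels: RG7112 tumours 1, 2 and 3, and vehicle tumours 3 and 4.

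Interferons reach cells through surface receptors whose Janus kinases phosphorylate STAT proteins. Type I interferons act through a complex called ISGF3, which contains STAT2 and IRF9 and binds the interferon-stimulated response element (ISRE). Interferon gamma acts on genes through the gamma-activated site (GAS), and IRF1 is among the first genes that it induces. IRF7 amplifies type I interferon production, and IRF8 directs the development of monocytes and dendritic cells. SOCS1 blocks the kinases and USP18 blocks the type I receptor, so both close a feedback loop. In tumours, interferon signalling is best known for raising antigen presentation and PD-L1.

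Whole-tumour RNA was measured on 1 Affymetrix Clariom S array per tumour, and the values are log2 signals. The array medians lay between 5.76 and 5.81. Across genes, Pearson correlations were 0.987 to 0.990 among RG7112 tumours, 0.992 between the vehicle tumours and 0.983 to 0.988 between groups, and genes are not independent replicates. The 12 melanocyte lineage markers of the labelled tumour type were bright, with a mean log2 signal of 10.78 to 10.87 in RG7112 tumours and 10.62 to 10.69 in vehicle tumours. None of 13 p53 target genes passed in limma (1 higher and 2 lower at an unadjusted p under 0.05), Cdkn1a and Mdm2 among them. The log2 difference was -0.11 ± 0.17 (SE) for Cdkn1a (limma adjusted p = 0.924) and 0.34 ± 0.21 for Mdm2 (adjusted p = 0.738).

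Of the 9 genes, 3 rose with RG7112: Irf1 by 2.32-fold, Usp18 by 1.92-fold and Stat2 by 1.86-fold. Neither receptor chain differed by more than its error. Irf7 and Irf9 stood higher in every RG7112 tumour without passing the test over all probes, and Irf8 and Socs1 had intervals that included 0. The test was limma over all probes with Benjamini-Hochberg adjustment and a call at adjusted p under 0.05, where 1.42% of probes were higher and 0.0315% lower. None of the 9 was called lower in limma, and none had an unadjusted p under 0.05 for a fall. The share of all probes at an unadjusted p under 0.05 is not given here. Counts at that threshold, here and below, therefore cannot be read as more than the background. The log2 signal of all RG7112 tumours exceeded that of all vehicle tumours for 6 of the 9 genes, against 10.8% of all probes. Irf8 is among these 6, although its nearest values in the groups were equal to 2 decimals. Of all probes 14.0% ran the other way, and none of the 9 did. The median log2 difference was 0.65 over the 9 genes and -0.03 over all probes. Because the 9 genes were chosen with earlier results of these data known, these contrasts with all probes are descriptions and not independent evidence. A larger amount of a transcript in whole tumours may come from more cells of a type or from more RNA per cell, and these cannot be told apart.

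**Figure D1:**
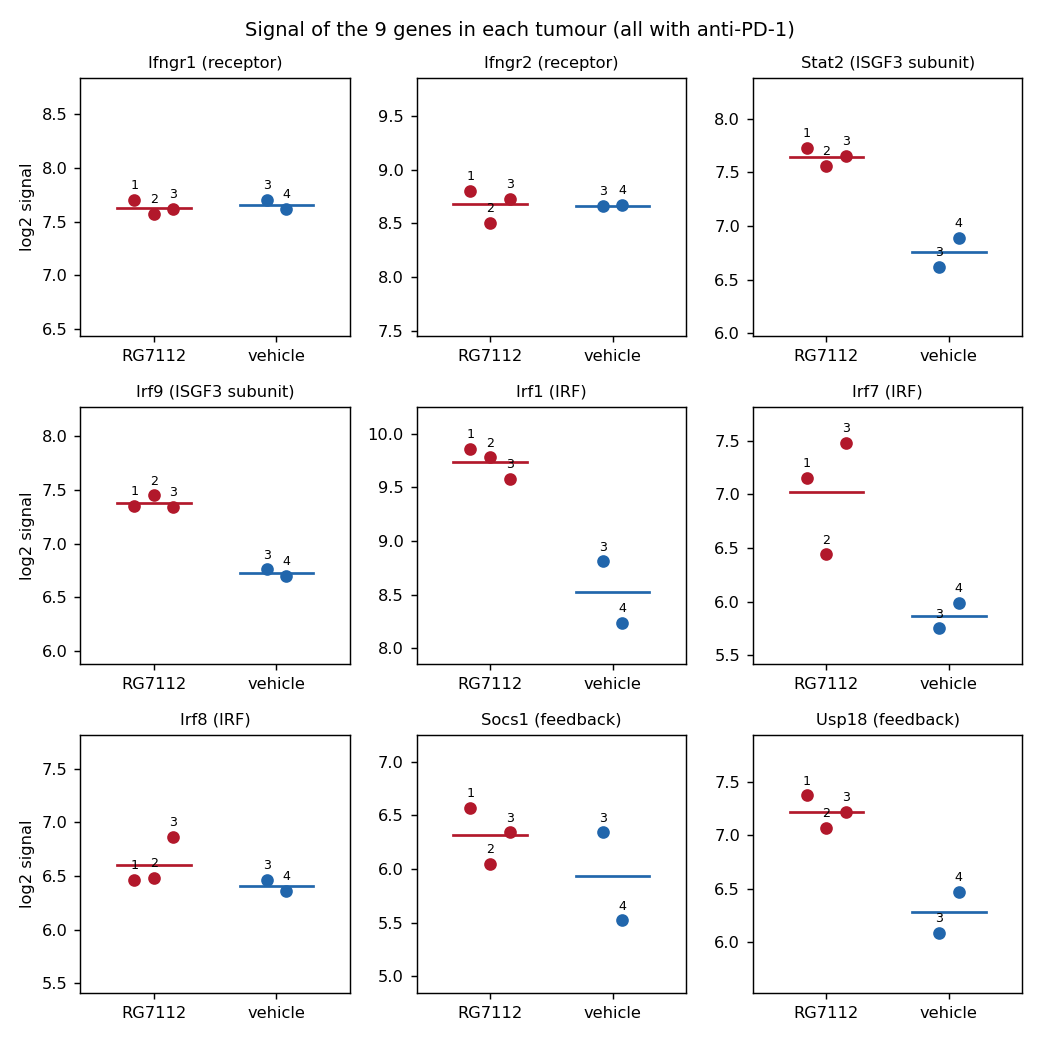
Log2 signal (vertical axes) of each gene in the 3 RG7112 tumours (red, left) and the 2 vehicle tumours (blue, right); digits are tumour numbers, horizontal lines are group means, and every panel spans the same range of log2 units. Stat2, Irf9, Irf1, Irf7 and Usp18 show a gap between the groups, while the receptor chains and Socs1 overlap and Irf8 nearly touches.

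Markers of several cell types were counted in the same limma fit, and those of macrophages and monocytes are given first. Of 16 measured macrophage and monocyte markers 9 rose, 0 fell and 7 did not pass (14 higher at an unadjusted p under 0.05). Their mean log2 signal was 7.26 to 7.66 in RG7112 tumours against 6.08 to 6.39 in vehicle tumours. For this list and those below, the share of all probes called was 1.42% higher and 0.0315% lower. The marker lists were chosen with earlier results of these data known. No marker had a value of 0, because log2 array signals have no true zero. T cell markers had a mean log2 signal of 5.45 to 5.57 in RG7112 tumours and 5.04 to 5.07 in vehicle tumours, with 1 of 11 called higher in limma (5 at an unadjusted p under 0.05) and a median log2 difference of 0.39. Endothelial markers had a mean log2 signal of 6.37 to 6.50 in RG7112 tumours and 5.79 to 6.01 in vehicle tumours. Of these 8 markers 1 was called higher (5 at an unadjusted p under 0.05), and the median log2 difference was 0.52. All RG7112 tumours exceeded all vehicle tumours for 7 of the 8, against 10.8% of all probes. This was so for 14 of 16 macrophage and monocyte, 7 of 11 T cell and 5 of 12 melanocyte lineage markers. It was so for 1 NK cell, 1 neutrophil and 2 fibroblast markers. Of these lists 1 neutrophil marker ran the other way, against 14.0% of all probes. Of 6 NK cell, 6 neutrophil, 8 fibroblast and 12 melanocyte lineage markers 0 were called in limma (1, 1, 2 and 3 at an unadjusted p under 0.05). The part of macrophages and monocytes, T cells and endothelial cells in the results on the 9 genes was not tested.

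The letters of the promoters are shown for the pairs of genes that carry the same motif and differ in their call. RefSeq windows (build GRCm38.p6) run from 250 bases before to 50 bases after the start of a transcript, and 11 windows covered 8 of the 9 genes. The ISRE core was searched as GAAANNGAAA and the GAS as TTCNNNGAA, on both strands, where N is any base and overlapping matches were kept. Of all 32851 windows of this length, 3.44% held the ISRE core and 8.30% the GAS. Among the 8 genes with a window the ISRE core was found for Stat2 and Socs1 and the GAS for Irf1 and Irf8. Usp18 had no window and was not searched. The matches are in capitals, each sequence runs 5′ to 3′ along the gene's strand, and the first capital of Stat2 lies 222 bases before the start.
Stat2, chr10:128270248-128270547, + strand: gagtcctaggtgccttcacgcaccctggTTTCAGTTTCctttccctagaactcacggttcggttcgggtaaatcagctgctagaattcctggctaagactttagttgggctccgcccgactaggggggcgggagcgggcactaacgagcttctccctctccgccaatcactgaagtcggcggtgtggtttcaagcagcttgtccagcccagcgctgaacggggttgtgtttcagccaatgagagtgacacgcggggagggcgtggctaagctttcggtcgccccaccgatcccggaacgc
Socs1, chr16:10785487-10785786, - strand: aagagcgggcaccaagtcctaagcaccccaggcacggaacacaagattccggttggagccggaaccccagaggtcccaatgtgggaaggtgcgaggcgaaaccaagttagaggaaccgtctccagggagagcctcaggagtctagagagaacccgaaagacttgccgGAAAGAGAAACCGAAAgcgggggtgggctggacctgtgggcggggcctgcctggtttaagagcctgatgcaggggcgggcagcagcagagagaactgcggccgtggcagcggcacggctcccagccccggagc
Irf1, chr11:53769764-53770063, + strand: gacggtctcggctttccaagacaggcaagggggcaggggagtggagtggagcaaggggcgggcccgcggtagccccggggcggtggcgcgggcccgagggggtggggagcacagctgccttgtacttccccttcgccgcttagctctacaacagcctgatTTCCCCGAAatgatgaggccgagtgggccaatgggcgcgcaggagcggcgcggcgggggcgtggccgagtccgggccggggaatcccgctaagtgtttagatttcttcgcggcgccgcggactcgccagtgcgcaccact
Irf8, chr8:120736108-120736407, + strand: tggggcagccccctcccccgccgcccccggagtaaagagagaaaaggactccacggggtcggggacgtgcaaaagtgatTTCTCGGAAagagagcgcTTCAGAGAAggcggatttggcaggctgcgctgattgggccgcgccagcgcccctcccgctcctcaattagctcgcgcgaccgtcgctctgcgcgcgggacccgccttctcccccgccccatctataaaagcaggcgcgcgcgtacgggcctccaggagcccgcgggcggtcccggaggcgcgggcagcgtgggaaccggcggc

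In Socs1 a pair of overlapping ISRE core matches began 83 and 77 bases before the start. The GAS of Irf1 began 90 bases before the start, and the GAS matches of Irf8 began 171 and 153 bases before it. Of the ISRE pair, Stat2 was called higher and Socs1 was not, and of the GAS pair, Irf1 was called higher and Irf8 was not. No match of either motif lay in the windows of Ifngr1, Ifngr2, Irf7 and Irf9, nor in the second window of Irf1 or Irf8, which says only that these letters are not in these windows. A match is a description of letters and was not tested as a binding site.

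The receptor chains are described first. IFNGR1 binds interferon gamma, and IFNGR2 is needed to start the signal. Ifngr1 had log2 signals of 7.70, 7.57 and 7.62 in RG7112 tumours 1, 2 and 3, against 7.70 and 7.62 in vehicle tumours 3 and 4. Ifngr2 had log2 signals of 8.80, 8.50 and 8.73 in RG7112 tumours, against 8.66 and 8.67 in vehicle tumours. For both genes the groups overlapped fully, since the vehicle tumours lay inside the range of the RG7112 tumours or level with its ends. The log2 difference was -0.03 ± 0.15 (SE) for Ifngr1, with a 95% interval from -0.37 to 0.31. For Ifngr2 it was 0.01 ± 0.16, with an interval from -0.34 to 0.37. In folds, the intervals reached 0.776 to 1.24 for Ifngr1 and 0.789 to 1.29 for Ifngr2, with limma adjusted p = 0.982 and 0.993.

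Ifnar1 and Ifnar2, the chains of the type I receptor, differed by 0.10 ± 0.15 and 0.09 ± 0.16 on the log2 scale (adjusted p = 0.924 and 0.936). Il10rb, a chain that the type III interferon receptor shares with the interleukin-10 receptor, differed by 0.25 ± 0.16 (adjusted p = 0.734). Of these 4 other receptor genes, Ifnlr1 included, 0 passed in limma and 0 had an unadjusted p under 0.05.

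STAT2 and IRF9 are the subunits of ISGF3 that answer to type I and type III interferons. Stat2 had log2 signals of 7.73, 7.56 and 7.65 in RG7112 tumours, against 6.62 and 6.89 in vehicle tumours. The groups were 0.67 apart at their nearest values. Stat2 averaged 7.65 ± 0.08 (SD, n = 3) with RG7112 and 6.76 ± 0.20 (SD, n = 2) with vehicle. The log2 difference was 0.89 ± 0.16 (SE), with a 95% interval of 0.54 to 1.25 (limma adjusted p = 0.0181). Irf9 had log2 signals of 7.35, 7.45 and 7.34 in RG7112 tumours, against 6.76 and 6.70 in vehicle tumours. It varied the least within groups among the genes that separated them, with a range of 0.11 in RG7112 tumours and 0.06 in vehicle tumours. Its log2 difference of 0.65 ± 0.15, with an interval of 0.31 to 0.98, did not pass (adjusted p = 0.0786). Without RG7112 tumour 1, 2 or 3 the difference of Irf9 was 0.67, 0.61 and 0.67 (limma adjusted p = 0.134, 0.2 and 0.136). It was 0.68 without vehicle tumour 3 and 0.62 without vehicle tumour 4. Whether Stat2 and Irf9 differed in their change was not tested.

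The call for Stat2 held without RG7112 tumour 2. It was lost without vehicle tumour 3 (log2 difference 0.75, adjusted p = 0.327), without vehicle tumour 4 (1.03, adjusted p = 0.116), without RG7112 tumour 1 (0.85, adjusted p = 0.0505) and without RG7112 tumour 3 (0.89, adjusted p = 0.0624). With 1 vehicle tumour left, that tumour is assumed to vary like the RG7112 tumours.

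IRF1 is the transcription factor through which much of the interferon gamma response passes, including class I antigen presentation. Irf1 had log2 signals of 9.86, 9.78 and 9.58 in RG7112 tumours, against 8.81 and 8.24 in vehicle tumours. Every RG7112 tumour was at least 0.77 above the higher vehicle tumour, and the vehicle tumours were 0.57 apart. Irf1 averaged 9.74 ± 0.14 (SD, n = 3) with RG7112 and 8.53 ± 0.40 (SD, n = 2) with vehicle. Its log2 difference was 1.22 ± 0.20 (SE), with a 95% interval of 0.79 to 1.65 (limma adjusted p = 0.0089). The call was lost without vehicle tumour 4 (0.93, adjusted p = 0.191), and it held without each of the other tumours.

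IRF7 is itself an interferon-induced gene and is the main driver of interferon alpha production. Irf7 had log2 signals of 7.15, 6.44 and 7.48 in RG7112 tumours, against 5.75 and 5.99 in vehicle tumours. RG7112 tumour 2 was the lowest of its group and still 0.45 above the higher vehicle tumour. The spread among RG7112 tumours, 1.04 from lowest to highest, was the widest of the 9 genes in that group. Irf7 averaged 7.02 ± 0.53 (SD, n = 3) with RG7112 and 5.87 ± 0.17 (SD, n = 2) with vehicle, a log2 difference of 1.15 ± 0.26 (SE) with an interval of 0.58 to 1.73. It did not pass (limma adjusted p = 0.0638), and without RG7112 tumour 2 it did (1.44, adjusted p = 0.00668). It did not pass without RG7112 tumour 1 (1.09, adjusted p = 0.162) or without RG7112 tumour 3 (0.93, adjusted p = 0.175). The log2 difference was 1.03 without vehicle tumour 3 and 1.27 without vehicle tumour 4. At a looser threshold of adjusted p under 0.10, where 1.74% of probes were higher, Irf7 and Irf9 were called as well.

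IRF8 is a lineage factor of monocytes, dendritic cells and B cells that interferon gamma can also induce. Irf8 had log2 signals of 6.46, 6.48 and 6.86 in RG7112 tumours, against 6.46 and 6.36 in vehicle tumours. RG7112 tumour 3 stood above the rest, while the lowest RG7112 tumour and the higher vehicle tumour were equal to 2 decimals. Its log2 difference was 0.19 ± 0.17 (SE), with a 95% interval of -0.19 to 0.58 (limma adjusted p = 0.848), and 0.06 without RG7112 tumour 3. Cell types that carry much Irf8 were looked at beside it. Of 10 conventional dendritic cell markers 2 rose (3 higher at an unadjusted p under 0.05), against 1.42% of all probes called higher. The median log2 difference of the 10 markers was 0.11. The 2 that rose were Itgax (0.98) and Naaa (1.11). The other 8 lay between -0.23 and 0.46 and did not pass. Of 9 plasmacytoid dendritic cell markers 0 passed in limma (2 at an unadjusted p under 0.05), with a median of 0.03. Among these 2 was Bst2 (0.95), which is also counted below as a target of ISGF3. Of 7 B cell markers 0 passed (0 at an unadjusted p under 0.05), with a median of -0.14. The macrophage and monocyte markers had a median log2 difference of 1.22. The part of these cells in the level of Irf8 was not tested.

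The feedback genes differed in what could be shown. USP18 removes ISG15 from proteins and also sits on IFNAR2, where it lowers the response to type I interferon. Usp18 had log2 signals of 7.37, 7.07 and 7.22 in RG7112 tumours, against 6.09 and 6.47 in vehicle tumours. The groups were 0.59 apart at their nearest values. Usp18 averaged 7.22 ± 0.15 (SD, n = 3) with RG7112 and 6.28 ± 0.27 (SD, n = 2) with vehicle, a log2 difference of 0.94 ± 0.18 (SE) with an interval of 0.55 to 1.33 (limma adjusted p = 0.0238). The call was lost without vehicle tumour 3 (0.75, adjusted p = 0.409), vehicle tumour 4 (1.13, adjusted p = 0.104), RG7112 tumour 1 (0.86, adjusted p = 0.0676) or RG7112 tumour 3 (0.94, adjusted p = 0.0807).

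SOCS1 binds Janus kinases and the interferon gamma receptor and shuts the signal off. Socs1 had log2 signals of 6.57, 6.05 and 6.34 in RG7112 tumours, against 6.34 and 5.52 in vehicle tumours. The groups overlapped, because vehicle tumour 3 was as high as RG7112 tumour 3 while vehicle tumour 4 was the lowest of all. The 0.81 between the vehicle tumours was the widest vehicle range of the 9 genes. The log2 difference was 0.39 ± 0.24 (SE), with an interval of -0.14 to 0.92 (limma adjusted p = 0.722). It was -0.01 without vehicle tumour 4 and 0.80 without vehicle tumour 3, so its value rested on which vehicle tumour was included.

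**Figure D2:**
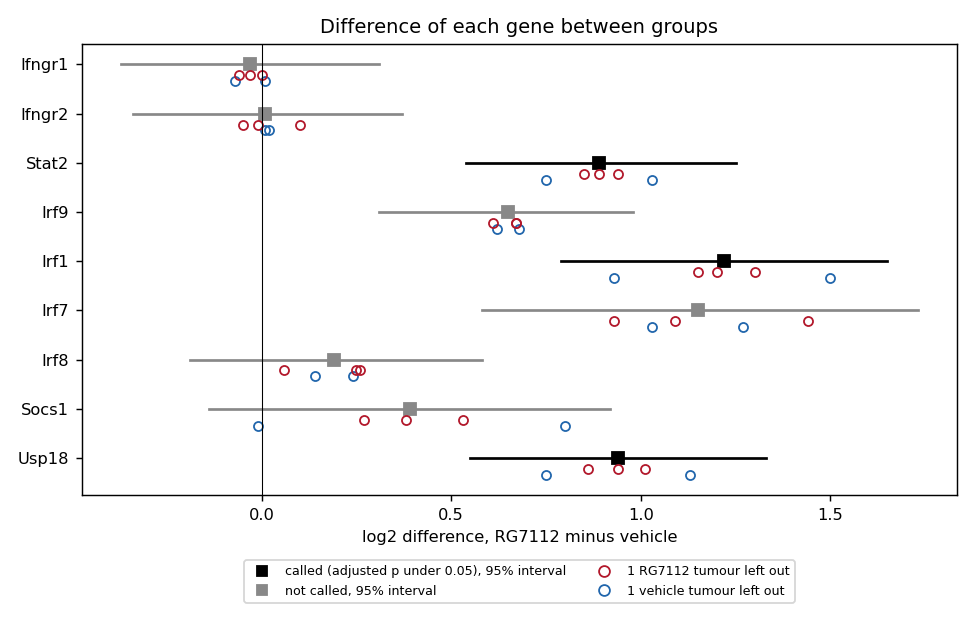
Log2 difference (horizontal axis, RG7112 minus vehicle) of each gene, with squares for the estimate and bars for the 95% interval from limma (black where called, grey where not); open circles give the estimate with 1 tumour left out (red an RG7112 tumour, blue a vehicle tumour). The intervals of both receptor chains, Irf8 and Socs1 include 0, and the circles of Socs1 run from -0.01 to 0.80.

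For each of the 9 genes an exact two-sided permutation test over the 10 ways to split the 5 tumours was also made, which cannot give a p below 0.1. The exact permutation p was 0.1 for Stat2, Irf1, Irf9 and Usp18, and 0.2 for Irf7. It was 0.4 for Irf8 and Socs1, 0.6 for Ifngr1 and 1.0 for Ifngr2.

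The 2 vehicle tumours did not differ in the same direction for all genes. Vehicle tumour 3 exceeded vehicle tumour 4 by 0.57 for Irf1 and by 0.81 for Socs1. For Usp18, Stat2 and Irf7, vehicle tumour 3 minus vehicle tumour 4 was -0.38, -0.28 and -0.24. Over all probes the absolute difference between the vehicle tumours was below 0.55 for 95% of probes, and vehicle tumour 3 was the higher one in 49.2%. Only the gaps of Irf1 and Socs1 among the 9 genes were larger than that. Among interferon gamma-type targets vehicle tumour 3 was the higher one for 21 of 24 genes, with a median difference of 0.40, and among ISGF3-type targets for 13 of 25, with a median of 0.03. Macrophage and monocyte markers also stood higher in vehicle tumour 3, for 13 of 16 genes with a median of 0.35. So did NK cell (5 of 6, median 0.26), neutrophil (4 of 6, median 0.26) and T cell markers (7 of 11, median 0.11). Endothelial markers (2 of 8, median -0.29) and melanocyte lineage markers (3 of 12, median -0.07) ran the other way. The remaining marker lists had medians from -0.05 to 0.05. These are values of single tumours, with no test.

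The shape of the values over the 5 tumours was compared between genes after each gene's own mean was subtracted. The measure is the root mean square difference in log2 units, where a small value means a like pattern. The values were not scaled, so genes that all vary little, such as Ifngr1 and Ifngr2, give small values whatever their shape. Among the 36 pairs of the 9 genes, Stat2 and Usp18 were the most alike, at 0.058, followed by Ifngr1 and Ifngr2 at 0.073. Ifngr1 and Irf7 were the least alike, at 0.667. The genes outside the 9 nearest to their mean pattern were Jam3 (0.031), which encodes a junctional adhesion molecule, Psme1 (0.036), a subunit of the proteasome activator PA28, Eogt (0.044), a glycosyltransferase, Iqce (0.053) and the aminopeptidase gene Lap3 (0.058). Their log2 differences lay between 0.55 for Iqce and 0.68 for Lap3, and none of the 5 passed the test (limma adjusted p from 0.1 to 0.182). The nearest gene was Psme2b for Stat2 (0.050), Tbxas1 for Irf1 (0.055), Vav1 for Irf7 (0.143), Cyp4f18 for Irf8 (0.026), Selenop for Irf9 (0.037) and Pxk for Usp18 (0.033). It was Aph1a for Ifngr1 (0.013), Smn1 for Ifngr2 (0.018) and Mrpl1 for Socs1 (0.085). The likeness is over 5 tumours of 2 groups and was searched among 18424 genes.

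Of 57 other genes of ligands, receptors, kinases, STATs, IRFs, inhibitors and ISG15 conjugation, 2 rose, 0 fell and 55 did not pass. Of all probes, 1.42% were called higher. The median log2 difference was 0.01 over the 57 genes and -0.03 over all probes. None of 19 interferon ligand genes passed in limma, and 1 had an unadjusted p under 0.05. This was Ifna2 (-0.42 ± 0.19, adjusted p = 0.536), one of several interferon alpha genes whose near-identical sequences may share signal. Ifng, the ligand of the Ifngr1 and Ifngr2 chains, had log2 signals of 5.18, 4.57 and 4.29 in RG7112 tumours, against 3.92 and 4.69 in vehicle tumours, and the groups overlapped. Its log2 difference was 0.38 ± 0.28 (adjusted p = 0.790). Ifnb1, the interferon beta gene, differed by 0.20 ± 0.15 (adjusted p = 0.799). The ligand probes were dim, with 16 of 19 below the array median in vehicle tumours.

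None of 8 Janus kinases and other STATs passed in limma, and 1 had an unadjusted p under 0.05. Jak2, the kinase of IFNGR2, differed by 0.47 ± 0.19 (adjusted p = 0.474). Jak1 differed by -0.16 ± 0.16 and Tyk2, a kinase of the type I receptor, by 0.15 ± 0.18 (adjusted p = 0.857 and 0.893). Among 4 other IRFs 0 passed and 1 had an unadjusted p under 0.05, Irf5, a factor of inflammatory macrophages (0.53 ± 0.17, adjusted p = 0.273). Irf3, which is activated by phosphorylation rather than induced, differed by -0.17 ± 0.17 (adjusted p = 0.872). Among 18 other negative regulators 0 passed and 2 had an unadjusted p under 0.05. Socs6, of the same family as Socs1, differed by 0.58 ± 0.16 (adjusted p = 0.186), and Socs3, a brake on IL-6 type cytokines, by 0.05 ± 0.17 (adjusted p = 0.971).

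Both called genes of the pathway belong to ISG15 conjugation, the process that Usp18 reverses. ISG15 is a ubiquitin-like protein, UBE2L6 is its conjugating enzyme, and HERC6 is its ligase in the mouse. Ube2l6 had log2 signals of 9.47, 9.10 and 8.88 in RG7112 tumours, against 8.16 and 7.67 in vehicle tumours, and the groups did not overlap. It rose by 1.24 ± 0.21 (SE; limma adjusted p = 0.0128). Herc6 had log2 signals of 9.43, 9.30 and 9.05 in RG7112 tumours, against 8.27 and 8.05 in vehicle tumours, and rose by 1.10 ± 0.17 (adjusted p = 0.00783). Isg15 itself differed by 0.51 ± 0.21 and the activating enzyme gene Uba7 by 0.05 ± 0.15, and neither passed (adjusted p = 0.501 and 0.964). The call of Ube2l6 was lost without vehicle tumour 4 (0.99, adjusted p = 0.281). That of Herc6 was lost without vehicle tumour 4 (0.99, adjusted p = 0.186) and without vehicle tumour 3 (1.21, adjusted p = 0.0679).

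**Figure D3:**
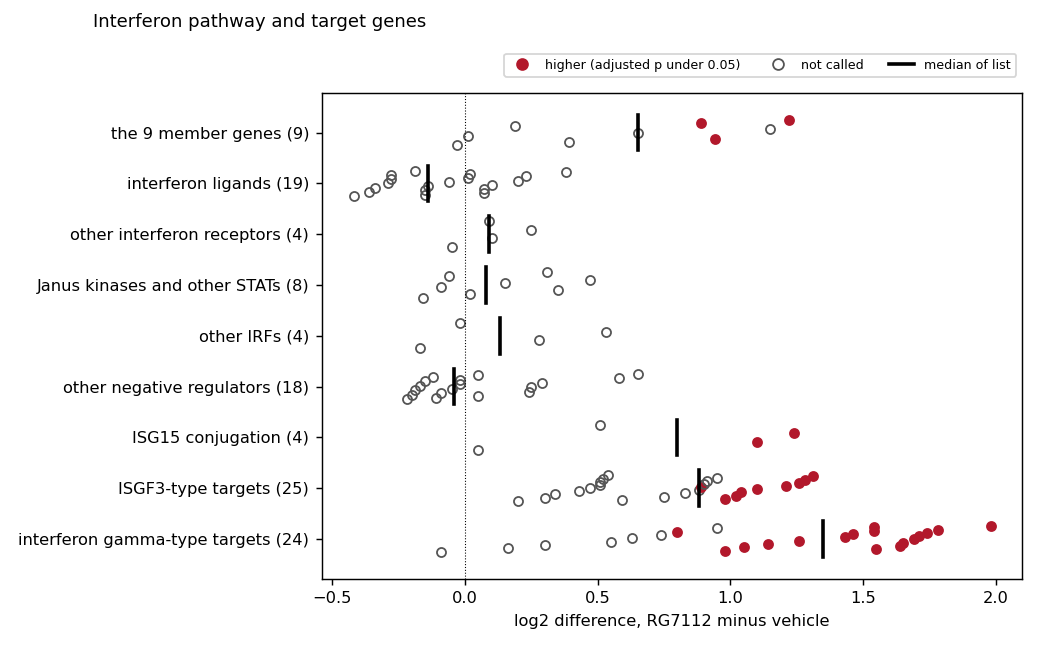
Log2 difference (horizontal axis, RG7112 minus vehicle) of each measured gene of the pathway and of its target lists, with the number of genes in brackets; filled red points were called higher, open points were not called, and black bars are list medians. Ligands, receptors, kinases, other IRFs and other negative regulators lie around 0, and calls appear in ISG15 conjugation and in both target lists.

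Target genes of the pathway were counted in the same fit, where 1.42% of all probes were called higher and 0.0315% lower. The median log2 difference over all probes was -0.03. Both target lists were chosen with earlier results of these data known, so their counts are descriptions and not independent evidence. Of 24 interferon gamma-type targets 17 rose, 0 fell and 7 did not pass, with a median log2 difference of 1.35. The members with the smallest p were Irgm2 (1.69 ± 0.21), an immunity-related GTPase, the guanylate-binding proteins Gbp3 (1.78 ± 0.22) and Gbp2 (1.54 ± 0.19), and the peptide transporter Tap1 (1.55 ± 0.19), with limma adjusted p from 0.00168 to 0.00186. Of 25 ISGF3-type targets 9 rose, 0 fell and 16 did not pass, with a median of 0.88. Rtp4 (1.31 ± 0.20), the nucleic acid sensor Zbp1 (1.28 ± 0.17), Oasl2 (1.21 ± 0.19) and the antiviral enzyme Rsad2 (1.10 ± 0.16) had the smallest p (adjusted p from 0.00281 to 0.00783). Isg15 is in both the conjugation and the ISGF3-type lists, and Bst2 is in both the ISGF3-type and the plasmacytoid dendritic cell lists. Whether the target lists differed from each other was not tested. Without vehicle tumour 4 no target of either list was called in limma (21 and 16 had an unadjusted p under 0.05), and without vehicle tumour 3 it was 13 interferon gamma-type and 3 ISGF3-type targets.

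The mean log2 signal of the interferon gamma-type targets was 8.62, 8.37 and 8.40 in RG7112 tumours 1, 2 and 3, against 7.47 and 7.11 in vehicle tumours 3 and 4. For ISGF3-type targets it was 7.54, 7.18 and 7.33 in RG7112 tumours, against 6.62 and 6.50 in vehicle tumours. RG7112 tumour 1 was the highest in both lists and in the macrophage and monocyte markers, at 7.66. RG7112 tumour 2, the lowest of its group for Irf7, Stat2 and Usp18, was also the lowest of its group in these 3 lists.

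**Figure D4:**
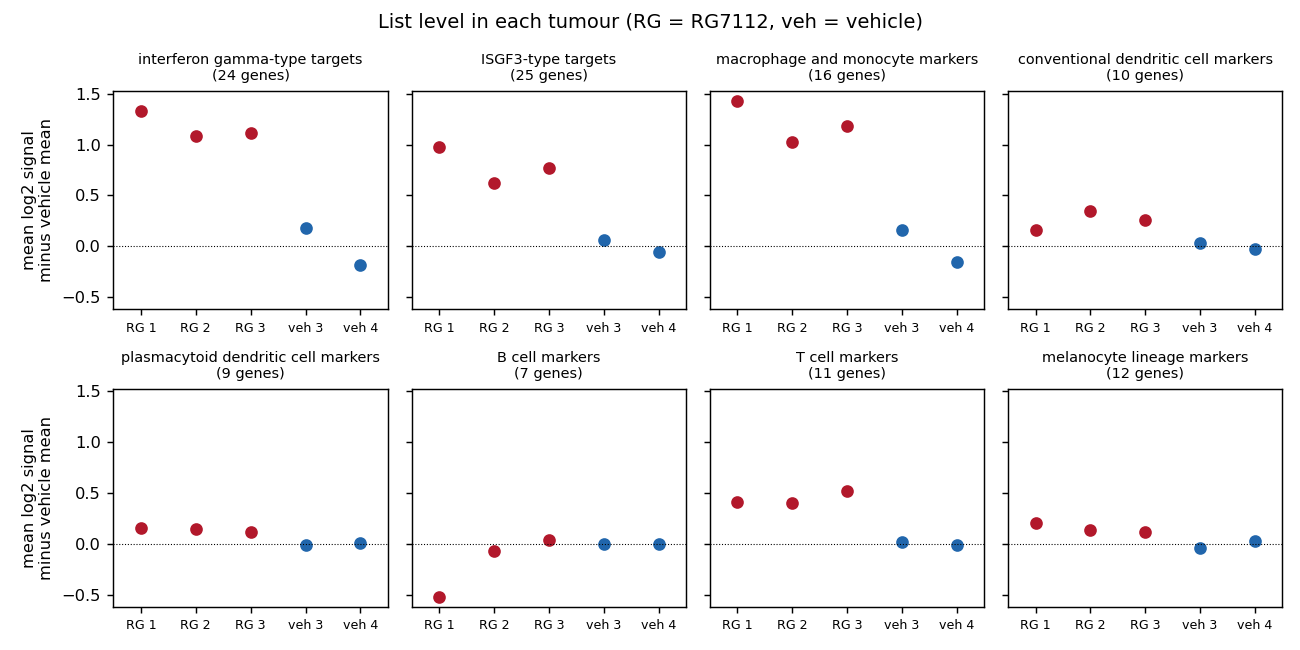
Mean log2 signal of each list in each tumour, minus the mean of the vehicle tumours (vertical axis); RG7112 tumours are red and on the left, vehicle tumours blue and on the right. Both target lists and the macrophage and monocyte markers separate the groups by the widest gaps, while the gaps of plasmacytoid dendritic cell markers are smaller and RG7112 tumour 1 is lowest in B cell markers.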

How the data were processed

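The authors deposited 1 table of log2 signals for 5 Affymetrix Clariom S arrays, 1 per tumour. Per the submitters' processing notes it was made with oligo and RMA, and the sources used here give neither versions nor options. The log2 scale was taken from RMA's usual output and the range of the values. All 5 columns were used. GEO's annotation of the array named 19572 probes, none with several symbols, and left 2631 unnamed. The number of arrays limits the precision, and no slide or scan data were used here, so batches could not be examined.

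Groups follow the treatment label. RG7112 minus vehicle was fitted with limma 3.58.1 in R 4.3.3 (lmFit, eBayes) on all 22203 probes, with Benjamini-Hochberg adjustment over all of them; residual degrees of freedom were 3 and the prior added 7.92. Intervals are 95% intervals of the moderated fit. The probe with the highest mean stood for a gene. Promoter windows came from RefSeq (GRCm38.p6). The fit was tested on simulated data. Figures used Python 3.11.15 and matplotlib 3.10.9.

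The members and gene lists were chosen with earlier results of these data known, and 209 of 225 list genes were measured. Named genes were the 9 members, Ifng, Ifnb1, Ifnar1, Ifnar2, Jak1, Jak2, Tyk2, Irf3, Irf5 and Socs3, and every called pathway gene. Also named were up to 4 called targets per list, the gene with the smallest p in a pathway list without a call, Cdkn1a, Mdm2 and the nearest patterns. Isg15, Uba7, Ifnlr1, Itgax, Naaa and Bst2 were named after their values were seen. A further gene of the rule is not reported here. Alternatives were an intensity trend, a robust fit, array weights, quantile or cyclic loess normalization, leaving out probes below the 40th percentile, 1 probe per gene, adjusted p under 0.10, and leaving out each tumour.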

Additional observations from a re-analysis of the deposited data

How the results depend on the processing

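No paired analysis was made, because the labels do not pair tumours between the groups. Under the intensity trend, robust fit, array weights, quantile and cyclic loess normalization, without dim probes and with 1 probe per gene, Irf1, Stat2 and Usp18 stayed called, and 3 or 4 of the 9 genes were called higher. Irf7 was also called with the intensity trend (1.15) and Irf9 with array weights (0.66). At adjusted p under 0.10, 5 genes were called, with Irf7 at 1.15 and Irf9 at 0.65. Ifngr2 changed sign to -0.02 with array weights, -0.05 with quantile and -0.01 with cyclic loess normalization. Leaving out 1 tumour gave log2 differences of -0.07 to 0.01 for Ifngr1, -0.05 to 0.10 for Ifngr2, 0.75 to 1.03 for Stat2, 0.93 to 1.5 for Irf1, 0.93 to 1.44 for Irf7, -0.01 to 0.80 for Socs1 and 0.75 to 1.13 for Usp18. The count of the 9 genes called higher then ran from 0 (without vehicle tumour 4, 5 at an unadjusted p under 0.05 in limma) to 4, that of other pathway genes from 0 to 2, of ISGF3-type targets from 0 to 8 and of interferon gamma-type targets from 0 to 15. These sets have fewer tumours and fewer degrees of freedom. Probes called higher were 315 with all tumours and 65 without vehicle tumour 4. The brightness of the probes over background is unknown, so its limit on the differences of dim genes is not known.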
